A study of Mus musculus with 6 samples.

Results

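*Atrx*, *Daxx*, the H3.3 genes *H3f3a* and *H3f3b*, and the chaperone genes *Hira*, *Ubn1*, *Ubn2*, *Cabin1*, *Asf1a* and *Asf1b* were followed in mouse tibia after deletion of *Atrx* in the osteoblast lineage. These 10 of the 55401 counted genes were taken by gene symbol. The rule uses no measured value, but it was set with earlier results of these data known. The Atrx-cKO group was 3 samples labelled Osterix-Cre; Atrxf/y, and the control group was 3 samples labelled Atrxf/y. All 6 came from males whose single *Atrx* allele was floxed, and tibias were taken at 8 weeks of age. The *Osterix-Cre* transgene places a tetracycline-repressible Cre fused to EGFP under regulatory sequence of *Sp7* (*Osterix*), which is active in preosteoblasts, and doxycycline kept it silent until 3 weeks of age. Each library was polyadenylated RNA of a whole tibia, so cells outside the *Osterix* lineage, including marrow cells with intact *Atrx*, are in every sample. The paper reports that *Osterix-Cre* mice with intact *Atrx* did not differ statistically from floxed controls in trabecular measures and cortical thickness. In the same comparison, tibia *Runx2*, *Col1a1* and *Ocn* showed no significant difference. No such mice are among these samples. The transgene was present in all Atrx-cKO mice and in no control, and its presence and the loss of *Atrx* cannot be told apart here. In bulk bone, fewer cells of a type and less RNA per cell cannot be told apart either.

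Histone H3.3 is the H3 variant that is made and placed into chromatin outside DNA replication as well as during it. Different carriers bring it to different places. ATRX, an ATP-dependent remodeler that reads heterochromatic H3 tails, works with the H3.3-binding chaperone DAXX at telomeres, pericentromeric repeats, retroelements and imprinted loci. The HIRA complex (HIRA, a ubinuclein and CABIN1) places H3.3 at active and poised genes. ASF1 proteins carry H3-H4 dimers and hand them to HIRA or to the replication-coupled assembly factor CAF-1.

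The study deletes exon 18 of *Atrx*. In the principal annotated transcript, which has 35 exons, exon 18 lies at chrX:105845795-105845941 on the minus strand of GRCm38 and is wholly coding. Whether the study numbers the exons as this annotation does is not given in the sources used here. The exon is shown because it is the part removed by Cre, and it has 147 bases, or 49 whole codons, so its loss leaves no partial codon. Its sequence, read from the GENCODE M21 transcript, is given here in the direction of transcription.

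Atrx exon 18: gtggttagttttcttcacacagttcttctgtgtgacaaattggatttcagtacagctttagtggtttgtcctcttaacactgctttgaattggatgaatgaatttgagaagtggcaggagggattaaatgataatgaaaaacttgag

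The exon is 1.43% of the 10275 bases of that transcript and 0.676% of the 21757 bases covered by any annotated *Atrx* exon. The deposited values are whole-gene counts, with no value for a single exon.

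*H3f3a* and *H3f3b* encode the same H3.3 protein from different bases. Their coding sequences, of 408 bases without the stop codon, differ at 95 bases (76.7% identity), and 81 of the 95 are the last base of a codon. The first 120 coding bases of each are shown because this is what lets reads of the genes be told apart, with the 24 differing bases in capitals.

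H3f3a: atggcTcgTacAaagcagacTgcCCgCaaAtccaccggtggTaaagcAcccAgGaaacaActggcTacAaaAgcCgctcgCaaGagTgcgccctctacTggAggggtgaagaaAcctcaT

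H3f3b: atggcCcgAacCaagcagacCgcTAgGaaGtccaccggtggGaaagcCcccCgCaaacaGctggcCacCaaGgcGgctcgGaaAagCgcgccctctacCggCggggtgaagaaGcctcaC

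No stretch as long as a 150-base read was shared between *H3f3a* and *H3f3b*. In the principal transcript of *H3f3a*, 22.8% of the 150-base windows occur exactly in a transcript of another gene, among them the processed pseudogenes *H3f3c*, *H3f3a-ps2* and *Gm6749*. The same share was 0.13% for *H3f3b*. The deposited counts set apart non-unique alignments (3.69% to 4.56% of each library) and ambiguous reads (0.644% to 0.701%), and count neither on a gene. How many reads from shared windows are among them is not given in the sources used here. The annotated pseudogenes themselves held few counts, with 15 to 28 per library for *H3f3c*, 11 to 36 for *H3f3a-ps2* and 94 to 113 for *H3f3a-ps1*, which is not among the genes that share a window. A read that aligns equally to *H3f3a* and a pseudogene is counted on neither. These counts therefore do not show how many reads *H3f3a* lost.

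Counts on genes ranged from 50977777 to 70571655 per library. All 10 genes passed the expression filter of edgeR, with 568 counts or more in every library. Counting error alone was therefore between 0.613% and 4.20% of a member's count. Values below are CPM (counts per megaread counted on genes) after TMM scaling, which corrects library size for a few very abundant genes. Both control replicate 3 and Atrx-cKO replicate 1 stood apart from the others. On the first principal component of log2 CPM (31% of the variance) control replicate 3 scored 75.3 and the rest -24.0 to -2.74, and on the second (20.2%) Atrx-cKO replicate 1 scored 60.6 and the rest -21.9 to -2.46. The summed level of 7 skeletal muscle genes (such as *Acta1* and *Ckm*) was 11184 CPM in control replicate 3 and 584 to 2005 CPM in the other 5 libraries. The summed level of 12 osteoblast lineage genes (such as *Col1a1* and *Bglap*) was 64178 to 65004 CPM in Atrx-cKO. It was 60039, 101790 and 91221 CPM in control replicates 1, 2 and 3, so the groups overlapped through control replicate 1 alone. *Col1a1* by itself made up most of each sum, at 53548 to 92517 CPM. Not all genes of the set followed the sum. *Mepe*, *Sost* and *Dkk1* were higher in control replicate 1 (283, 241 and 65.0 CPM) than in any other library. The other genes of the set were lower there than in control replicates 2 and 3. The median log2 fold change of the 12 genes was -0.23, with 0 called. Lineage RNA was present in all libraries, and its share in each group was not tested. None of these markers was at 0.

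Of the 10 genes, 0 were called different between Atrx-cKO and control in edgeR's quasi-likelihood test, where a call needed a Benjamini-Hochberg adjusted p below 0.05 and a log2 fold change of 1 or more in either direction. Over the 20636 genes tested, 3 were called, or 0.0145%. DESeq2's Wald test called 0 of the 10 as well, and 23 of the 26404 genes it tested, or 0.0871%. At an unadjusted p under 0.05 there was 1 member, *Asf1a*, where the share over all tested genes was 3.64%. The same gene was the 1 member whose groups did not overlap, against 8.31% of all tested genes. Fold changes are given as Atrx-cKO minus control. The 10 log2 fold changes lay between -0.11 for *Daxx* and 0.21 for *Asf1a*, with a median of 0.016 beside 0.0050 over all tested genes. The lowest adjusted p among the 10 was 0.992.

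**Figure D1:**
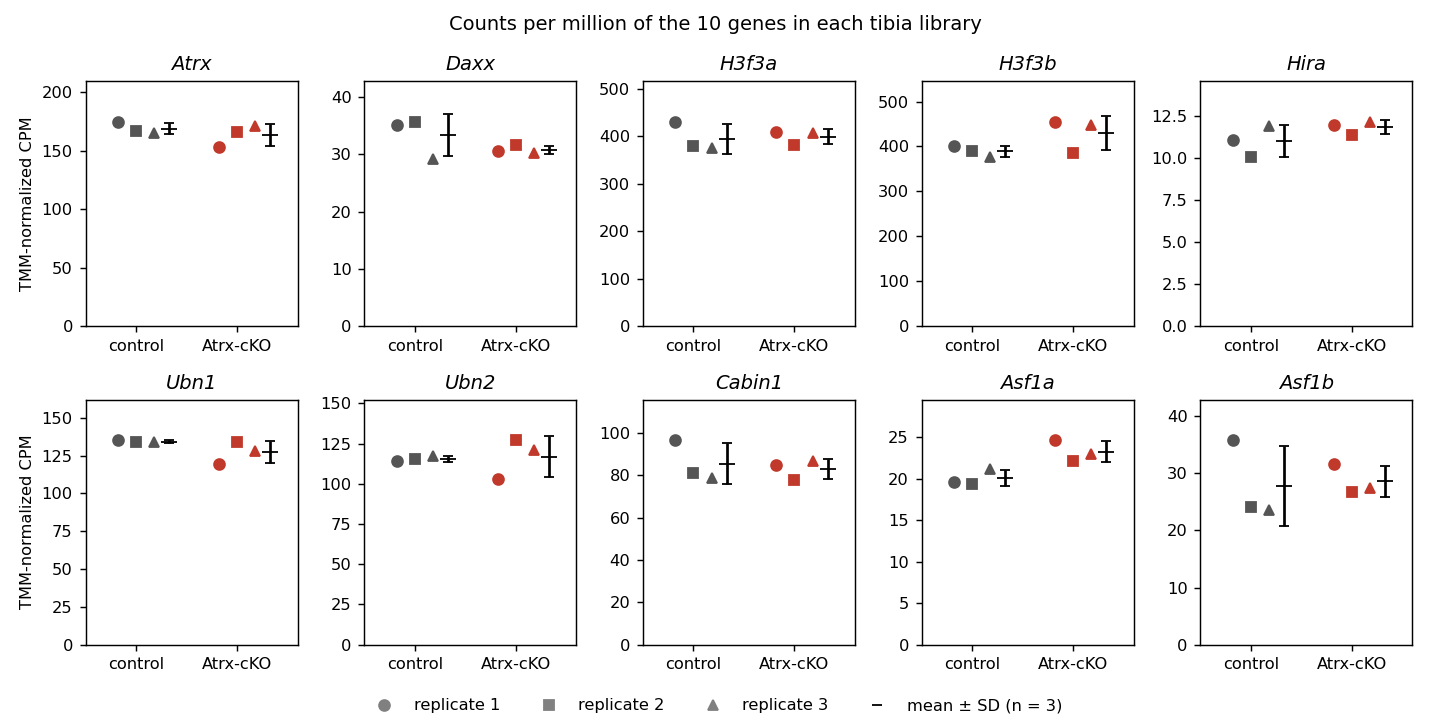
TMM-normalized CPM (vertical axes, from 0) of the 10 genes in the 3 control (grey) and 3 Atrx-cKO (red) tibia libraries, with the marker shape giving the replicate and the bar the mean ± SD. The groups overlap in every panel except *Asf1a*, where the Atrx-cKO libraries run from 22.2 to 24.6 and the control libraries from 19.4 to 21.1.

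*Atrx* (ENSMUSG00000031229), the targeted gene, spans positions 105797615 to 105929403 of chromosome X (minus strand, GRCm38 here and for all genes). It had 153, 166 and 171 CPM in Atrx-cKO replicates 1, 2 and 3, and 175, 166 and 165 CPM in the controls. Atrx-cKO replicate 1, which stood apart on the second component, was the lowest of the 6 and the other 2 lay within the control range. The log2 fold change was -0.047 (standard error 0.080, edgeR unadjusted p = 0.571). Its 95% interval, from -0.23 to 0.14, holds levels between 85.1% and 110% of control. A fall of the whole-tibia count to less than 85.1% therefore lies outside the interval. The share of the transcript that exon 18 makes up, 1.43%, is smaller than the distance from the estimate to either end. With plain library-size scaling the log2 fold change was 0.024, on the other side of 0, and without Atrx-cKO replicate 1 it was -0.0016. The paper reports reduced *Atrx* expression by RT-PCR in Atrx-cKO tibias of the same age. It also describes a faint, shorter transcript left by recombination of the floxed exon. The whole-gene counts do not set that transcript apart, so the loss of the exon was not tested here.

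*Daxx* (ENSMUSG00000002307, plus strand of chromosome 17 from 33909414 to 33915590) encodes the chaperone that holds H3.3 for ATRX. It had 30.6, 31.6 and 30.2 CPM in Atrx-cKO and 35.2, 35.7 and 29.2 in control. Control replicate 3, the library with the high muscle genes, was the lowest of all and the other controls were the highest. The log2 fold change was -0.11 (standard error 0.099, 95% interval -0.35 to 0.12, edgeR unadjusted p = 0.281). Without control replicate 3 it was -0.22 (edgeR unadjusted p = 0.0499, adjusted p = 0.9999). The part of the muscle RNA in this difference was not tested.

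*H3f3a* (ENSMUSG00000060743, minus strand of chromosome 1, 180800832 to 180813943) had 408, 381 and 407 CPM in Atrx-cKO and 430, 378 and 374 CPM in control, with both groups spanning much the same range. Its log2 fold change was 0.016 (standard error 0.093, 95% interval -0.20 to 0.23). *H3f3b* (ENSMUSG00000016559, minus strand of chromosome 11, 116021912 to 116027962) had 455, 386 and 449 CPM in Atrx-cKO and 402, 390 and 377 CPM in control. Atrx-cKO replicates 1 and 3 were above all controls and replicate 2 was among them. The log2 fold change was 0.14 (standard error 0.097, 95% interval -0.083 to 0.37, edgeR unadjusted p = 0.183). *H3f3aos*, an antisense gene that shares 160 exonic bases with *H3f3a*, had 1.64, 1.89 and 2.26 CPM in Atrx-cKO and 1.54, 0.886 and 1.41 in control. Its log2 fold change was 0.60 (standard error 0.28, 95% interval -0.049 to 1.25, edgeR unadjusted p = 0.0656, adjusted p = 0.992), so it did not pass the test although its groups did not overlap.

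The HIRA complex was represented by 4 genes, 2 with log2 fold changes above 0 and 2 below. *Hira* (ENSMUSG00000022702, plus strand of chromosome 16 from 18877037 to 18970309) encodes the WD-repeat subunit that binds ASF1A. It had 12.0, 11.4 and 12.2 CPM in Atrx-cKO and 11.1, 10.1 and 11.9 CPM in control. The groups overlapped through control replicate 3, and the log2 fold change was 0.11 (standard error 0.11, 95% interval -0.16 to 0.37). Without control replicate 2 it was 0.043. Of the exonic bases of *Hira*, 44.7% are also annotated to *Gm28539*, a longer gene on the same strand that was listed at 0 counts in all 6 libraries.

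*Ubn1* and *Ubn2* encode ubinucleins, the subunits of the complex that contact H3.3. *Ubn1* (ENSMUSG00000039473, plus strand of chromosome 16 from 5050057 to 5086289) had 120, 134 and 128 CPM in Atrx-cKO and 135, 134 and 134 CPM in control. The controls lay close together, with Atrx-cKO replicates 1 and 3 below them and replicate 2 among them. The log2 fold change was -0.079 (standard error 0.075, 95% interval -0.25 to 0.097), and it was -0.037 without Atrx-cKO replicate 1 and -0.13 without Atrx-cKO replicate 2. *Ubn2* (ENSMUSG00000038538, plus strand of chromosome 6 from 38433950 to 38524825) had 103, 127 and 121 CPM in Atrx-cKO and 114, 115 and 118 CPM in control. Here the Atrx-cKO libraries lay on both sides of the tight control group, at a log2 fold change of 0.016 (standard error 0.094, 95% interval -0.20 to 0.23). Of the 150-base windows of *Ubn2*, 2.23% also occur in *Hipk2*, a kinase gene with 56.4, 53.8 and 56.9 CPM in Atrx-cKO and 72.7, 68.3 and 71.2 in control. *Hipk2* was lower in all 3 Atrx-cKO libraries, at a log2 fold change of -0.35 (95% interval -0.50 to -0.19, edgeR unadjusted p = 0.000995, adjusted p = 0.992), and it failed the correction. *Cabin1* (ENSMUSG00000020196, minus strand of chromosome 10 from 75646112 to 75764341), the calcineurin-binding subunit, had 84.7, 77.8 and 86.8 CPM in Atrx-cKO and 96.5, 80.9 and 78.8 CPM in control. Control replicate 1 was the highest, and the log2 fold change was -0.039 (standard error 0.098, 95% interval -0.27 to 0.19).

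**Figure D2:**
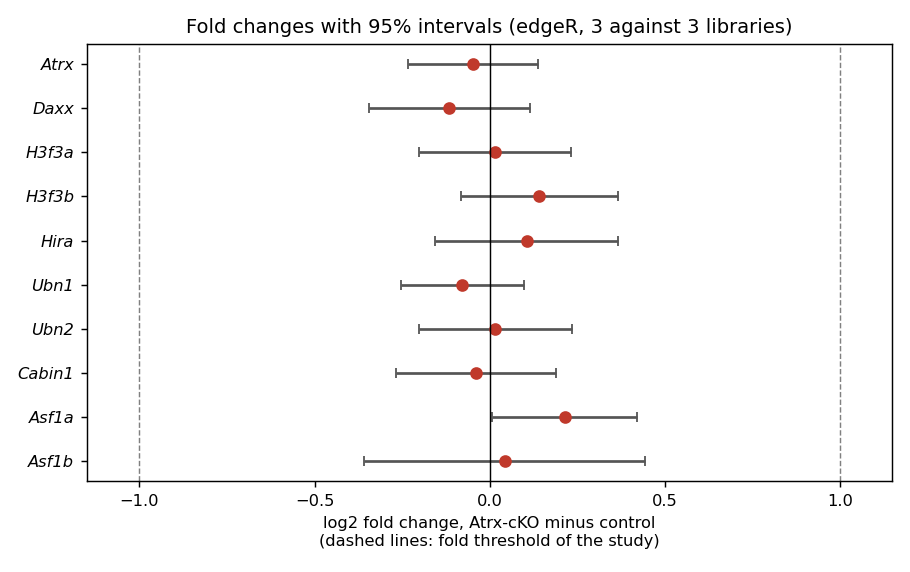
Log2 fold change of each gene between Atrx-cKO and control (points, horizontal axis) with its 95% interval from the edgeR fit (bars), with 3 libraries in each group. All 10 intervals lie inside the dashed lines at -1 and 1, and the interval of *Asf1a*, from 0.0055 to 0.42, is the one that does not include 0.

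*Asf1a* (ENSMUSG00000019857, plus strand of chromosome 10 from 53596757 to 53609225) encodes the ASF1 protein that supplies HIRA. It had 24.6, 22.2 and 23.0 CPM in Atrx-cKO replicates 1, 2 and 3, and 19.6, 19.4 and 21.1 CPM in the controls. All 3 Atrx-cKO libraries were above all 3 controls. The log2 fold change was 0.21 (standard error 0.090, 95% interval 0.0055 to 0.42), with an unadjusted p of 0.0456 and an adjusted p of 0.992 in edgeR, so it failed the correction over all genes. In DESeq2 the unadjusted p was 0.0691, and with any 1 library left out of the edgeR fit it ran from 0.0523 to 0.133. On the opposite strand, *Mcm9* covers 48.0% of the exonic bases of *Asf1a*. *Mcm9*, a helicase gene of DNA repair, had 24.4, 24.9 and 24.4 CPM in Atrx-cKO and 25.3, 23.9 and 24.3 in control, a log2 fold change of 0.0043. The remaining annotated genes that overlap a member (*Gm14853*, *Gm23656* and *Gm26020* in *Atrx*, *Gm15799* and *Gm15798* in *Hira*, *Gm23483* in *Ubn1* and *Mir7670* in *Ubn2*) had 0 to 13 counts per library. Of the cell type marker sets that were summed, only the endothelial one (*Cdh5*, *Pecam1*, *Kdr* and *Emcn*) did not overlap between groups. Its sums were 464 to 480 CPM in Atrx-cKO and 424 to 459 in control. Singly, *Cdh5*, *Pecam1* and *Emcn* overlapped and only *Kdr* did not, beside 8.31% of all tested genes. The part of these markers in the *Asf1a* values was not tested.

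*Asf1b* (ENSMUSG00000005470, plus strand of chromosome 8 from 83955507 to 83970197) is the paralog expressed mainly in dividing cells. It had 31.7, 26.8 and 27.4 CPM in Atrx-cKO and 35.8, 24.1 and 23.5 CPM in control. The control group held both the highest library and the lowest. The log2 fold change was 0.043 (standard error 0.17, 95% interval -0.36 to 0.44), the widest interval of the 10 genes. Without control replicate 1 it was 0.27, and without control replicate 3 it was -0.076. The summed level of 8 proliferation markers (*Mki67*, *Top2a*, *Cdk1*, *Ccnb1*, *Birc5*, *Pcna*, *Rrm2* and *Tyms*) was 1385, 1043 and 1140 CPM in Atrx-cKO and 1397, 949 and 925 CPM in control. From highest to lowest, the 6 libraries stood in the same order for *Asf1b* as for this sum. The sums of control replicate 1 (1397 CPM) and Atrx-cKO replicate 1 (1385 CPM) were close. Singly, only *Rrm2* gave that same order. *Top2a*, *Cdk1*, *Ccnb1*, *Birc5* and *Tyms* were highest in Atrx-cKO replicate 1, and *Mki67* and *Pcna* were lowest in control replicate 2. The comparison was chosen after the values were seen, and it was not tested. *Asf1a* did not follow that order, and control replicate 1, highest for *Asf1b*, was next to lowest for *Asf1a*.

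**Figure D3:**
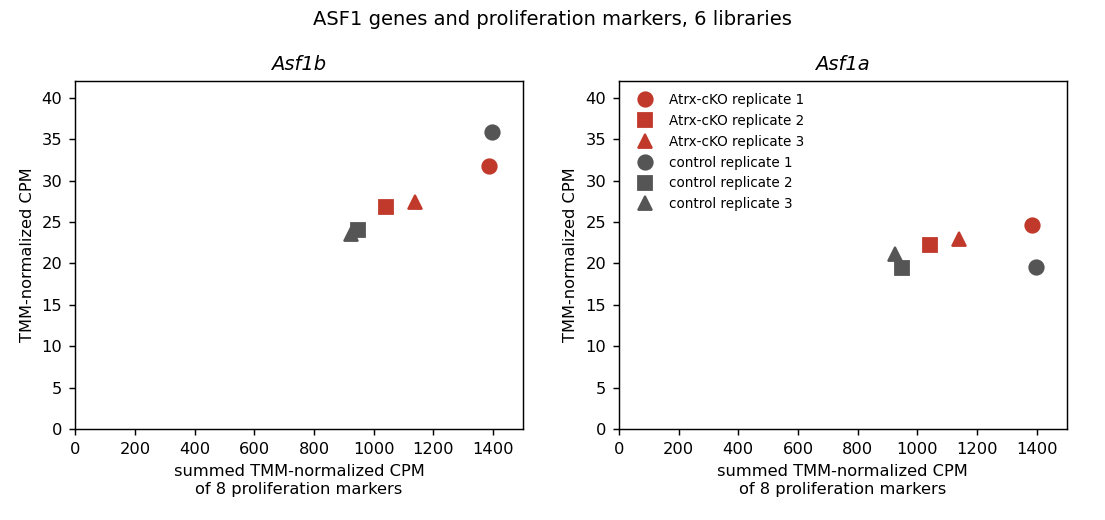
TMM-normalized CPM of *Asf1b* (left) and *Asf1a* (right) on the vertical axes against the summed CPM of 8 proliferation markers, with 1 point for each of the 3 control (grey) and 3 Atrx-cKO (red) libraries. *Asf1b* is lowest (23.5) where the marker sum is lowest (925) and highest (35.8) where it is highest (1397), while *Asf1a* is 19.6 in the library with the highest marker sum.

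Spread between libraries of a group differed among the members. The within-group SD of log2 CPM was 0.26 for *Asf1b*, which exceeded that of 89.8% of the 500 genes nearest to it in level. It was 0.058 for *Ubn1*, 0.067 for *Atrx* and 0.072 for *Asf1a*, larger than in 16.2%, 19.0% and 12.2% of genes at a like level. The other 6 members lay between 0.088 and 0.13, and the median over all tested genes was 0.21.

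Ratios between related members within a library do not depend on library scaling. The log2 ratio of *H3f3a* to *H3f3b* counts was -0.16, -0.022 and -0.14 in Atrx-cKO and 0.098, -0.047 and -0.011 in control. The Atrx-cKO mean was lower by 0.12 on the log2 scale, with overlapping groups (exact two-sided permutation p = 0.20, adjusted p = 0.40 over 4 ratios). For *Ubn1* to *Ubn2* the values were 0.22, 0.078 and 0.084 in Atrx-cKO and 0.24, 0.22 and 0.19 in control (difference -0.091, exact permutation p = 0.20, adjusted p = 0.40). The *Asf1a* to *Asf1b* difference was 0.15 (exact permutation p = 0.80), and control replicate 1, at -0.87, was far below the other libraries, which ran from -0.37 to -0.15. *Atrx* to *Daxx* differed by 0.060 (exact permutation p = 0.50). With 3 libraries against 3 the smallest p this test can give is 0.1, so none could pass a threshold of 0.05.

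Levels of different genes were compared as CPM per kilobase of exon. The H3.3 genes were by far the highest, at 138 ± 11.2 (SD, n = 6) CPM per kilobase for *H3f3b* and 113 ± 6.29 (SD, n = 6) for *H3f3a*, above 99% and 98.7% of tested genes. The chaperone genes followed at 15.8 ± 0.727 for *Ubn1*, 12.1 ± 2.02 for *Asf1b*, 10.2 ± 0.864 for *Daxx*, 7.63 ± 0.341 for *Atrx*, 6.93 ± 0.569 for *Cabin1*, 5.95 ± 0.553 for *Asf1a* and 5.42 ± 0.375 for *Ubn2* (SD, n = 6, CPM per kilobase). *Hira* was the lowest at 1.84 ± 0.127 (SD, n = 6) CPM per kilobase, above 37.4% of tested genes. Neighbors in this order had overlapping ranges over the 6 libraries from *Ubn1* to *Asf1b* and *Daxx*, and again from *Atrx* through *Cabin1* and *Asf1a* to *Ubn2*. The order in the middle depended on the length used. *Atrx* has many annotated exons beyond its principal transcript, and per kilobase of that transcript it was at 16.2, above *Asf1b* (15.8) and *Daxx* (12.0). Without exonic bases shared with another gene, *Asf1a* was at 11.5 and *Hira* at 3.33. *H3f3b* and *H3f3a* were the highest and *Hira* the lowest under all 3 lengths, and the ranges of *H3f3b* and *H3f3a* were separate with all annotated exons but overlapped with the other lengths. None of the lengths corrects for reads set aside as non-unique. Windows shared with other genes were 22.8% for *H3f3a* and 0.13% for *H3f3b*, so the order of *H3f3b* and *H3f3a* is not settled here.

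**Figure D4:**
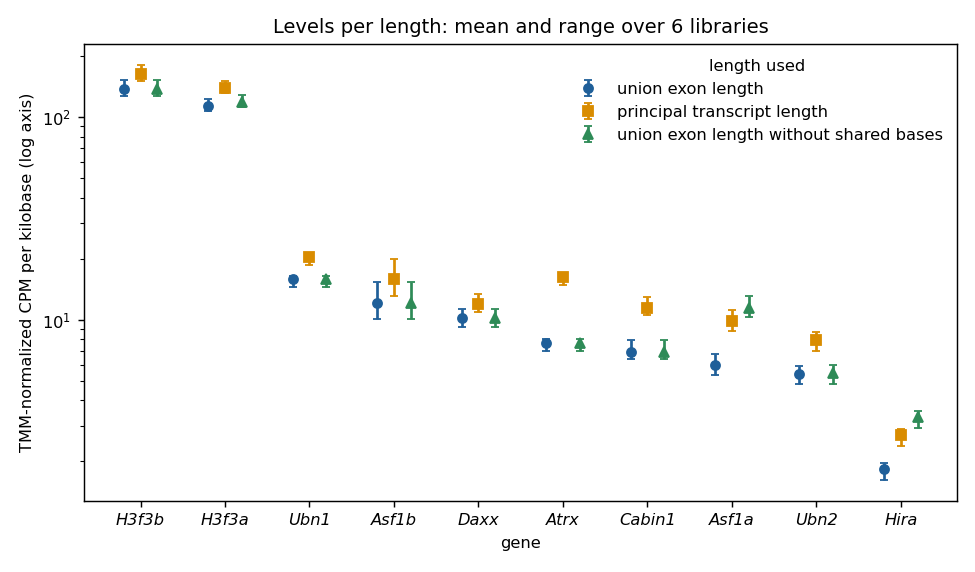
TMM-normalized CPM per kilobase (vertical axis, log scale) of the 10 genes, as the mean (marker) and range (bar) over all 6 libraries, with 3 ways of setting the length of a gene. *H3f3b* and *H3f3a* stand above 100 in each, *Hira* is lowest in each, and *Atrx* moves from 7.63 to 16.2 when the principal transcript is used.

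Genes that work beside the members were counted next. Among 22 other H3-H4 chaperones and assembly factors, all of them tested, 0 were called in either direction and 0 had an unadjusted p under 0.05 (edgeR). Their median log2 fold change was 0.057, and 16 of the 22 lay above 0, beside 51.2% of all tested genes. The median was 0.0021 without control replicate 3, 0.0027 without Atrx-cKO replicate 1, 0.016 without control replicate 2 and 0.16 without control replicate 1. Groups did not overlap for 2 of the 22, beside 8.31% of all tested genes. *Cdan1*, whose product codanin-1 holds ASF1 in the cytoplasm, had 42.4, 45.9 and 47.9 CPM in Atrx-cKO and 50.2, 52.0 and 49.9 in control (log2 fold change -0.16, 95% interval -0.33 to 0.016, edgeR unadjusted p = 0.0692). All Atrx-cKO libraries were below all controls. *Npm1*, nucleophosmin, had 349, 218 and 226 CPM in Atrx-cKO and 211, 218 and 201 CPM in control, a log2 fold change of 0.33 (95% interval -0.084 to 0.75). Its Atrx-cKO mean rests on replicate 1, and the other 2 libraries were close to the controls, though above each of them. *Nasp*, which keeps a reserve of soluble H3-H4, was at 0.20 (95% interval -0.11 to 0.50).

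Of 16 ATRX partners in heterochromatin, cohesin, DNA repair and nuclear bodies, 0 were called and 0 had an unadjusted p under 0.05 (edgeR). The median was 0.074, with 14 above 0 and 2 below, beside 51.2% of all tested genes above 0. It was 0.023 without control replicate 3, 0.037 without control replicate 2 and 0.13 without control replicate 1. Groups did not overlap for 3 of the 16 (*Mre11a*, *Nbn* and *Cbx1*), beside 8.31% of all tested genes. *Mre11a* and *Nbn*, subunits of the MRN double-strand break complex, were at 0.15 (95% interval -0.054 to 0.35) and 0.12 (95% interval -0.088 to 0.32). *Suv39h2*, an H3K9 methyltransferase, was at 0.18 (95% interval -0.17 to 0.54). Of 9 genes for other histone variants and their handlers, 0 were called and 0 had an unadjusted p under 0.05 (edgeR), with a median of -0.022 and log2 fold changes from -0.18 for *H2afy2* to 0.13 for *H2afy*, both macroH2A genes. *H2afz*, encoding H2A.Z, was at 0.12 (95% interval -0.15 to 0.39).

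On chromosome X, the nearest tested genes to either side of *Atrx* were *Pbdc1* and *Magee1* at lower coordinates and *Magt1* and *Cox7b* at higher ones. *Magt1*, a magnesium transporter gene from 105968084 to 106011906, had 101, 102 and 88.0 CPM in Atrx-cKO and 82.6, 86.6 and 82.8 in control. Its groups did not overlap, at a log2 fold change of 0.21 (95% interval 0.016 to 0.40, edgeR unadjusted p = 0.0370, adjusted p = 0.992), and it failed the correction. The other 3 lay between -0.0044 and 0.0034. The genes whose log2 CPM followed *Atrx* most closely over the 6 libraries were *Mgst2*, *M1ap*, *Phlpp2*, *Sft2d2* and *Kif1bp*, with Pearson r from 0.988 to 0.992. They were the top 5 of 20636 tested genes over 6 points, and the value describes only these libraries.

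**Figure D5:**
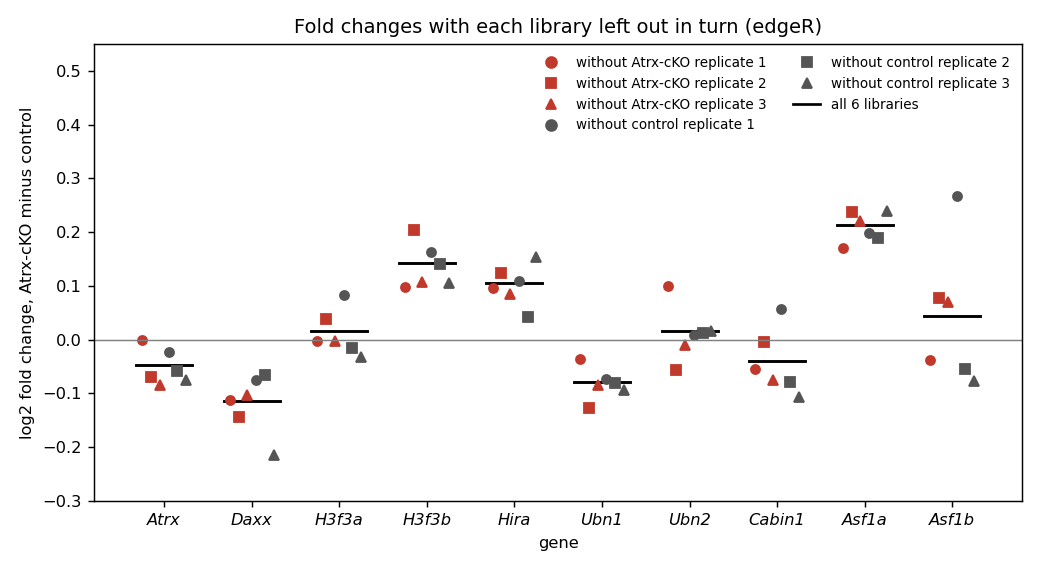
Log2 fold change of each gene (vertical axis) in edgeR fits that each left out 1 of the 6 libraries (markers), beside the fit with all 6 (black lines). *Asf1b* moves most, from -0.076 to 0.27, and *Asf1a* stays between 0.17 and 0.24.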

How the data were processed

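RNA was extracted from whole tibias of Atrx-cKO and control mice, with 3 samples in each group, and polyadenylated RNA was sequenced as 150-base paired-end reads. The authors deposited raw counts per Ensembl gene, in 1 table per library, with 5 summary entries (56.2% to 57.2% of each table) that entered neither library sizes nor tests. The largest of these entries was reads on no annotated feature, at 51.6% to 52.4% of each table. Its bearing on the members' counts was not tested. Per the labels, the submitters' processing notes name GRCm38 and DESeq2. The aligner and the counter are not given in the sources used here. The labels call the libraries strand specific, and whether counting used strand is not stated.

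Of the 55401 gene identifiers, 55141 had a symbol in GENCODE M21 (GRCm38). Counts were fitted with edgeR 4.0.16 in R 4.3.3 (TMM, filterByExpr, glmQLFit and glmQLFTest on genotype), with Benjamini-Hochberg adjustment over 20636 genes. The standard error was the coefficient over the square root of F, and 95% intervals used the t quantile of the fit. DESeq2 1.42.0 was an alternative. Ratios of counts (0.5 added) were compared by exact permutation.

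Members and gene lists were chosen with earlier results of these data known. Named were all members, list genes called or with the 3 lowest p, genes overlapping a member, H3f3 genes, the 2 nearest tested genes on each side of *Atrx* and the 5 most correlated with it. Alternatives were other scalings, filters, DESeq2, a replicate block and each library left out. *Cbx1*, *Gm6749*, *Hipk2* and the marker genes were named after values were seen. Libraries of a group differed beyond sampling noise (chi-square per degree of freedom 17.4 to 154). Neither the labels nor the study's methods say that each sample is a separate animal, so p-values measure the spread between these samples.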

Additional observations from a re-analysis of the deposited data

How the results depend on the processing

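The count of members called was 0 under all 13 alternatives of scaling, filter, test, block and left-out library, and so were the counts of the 3 gene lists. Small estimates crossed 0. With library-size scaling, *Atrx* was at 0.024 and *Cabin1* at 0.025, where the median of all tested genes was 0.077 and those of the members, ATRX partners and other variant genes were 0.087, 0.14 and 0.053. Without 1 library, the members' median ran from -0.054 to 0.070, that of other variant genes from -0.031 to 0.046, *Atrx* from -0.084 to -0.0016, *Daxx* from -0.22 to -0.066, *Hira* from 0.043 to 0.15, *Ubn1* from -0.13 to -0.037, *H3f3a* ran from -0.033 to 0.083, *Asf1b* from -0.076 to 0.27, *Ubn2* from -0.057 to 0.10, *Cabin1* from -0.11 to 0.057, the *Asf1a*/*Asf1b* difference from -0.066 to 0.29 and the *Atrx*/*Daxx* difference from -0.0012 to 0.14. Over all genes, 3 were called higher and 0 lower, from 0 to 5 higher and 0 to 1 lower without 1 library. The count higher fell to 0 when control replicate 2 or either of Atrx-cKO replicates 1 and 2 was left out. Leaving out Atrx-cKO replicate 3 gave 1 higher and 1 lower, and leaving out control replicate 3 gave 5 higher. DESeq2 called 10 higher and 13 lower, no filter gave 1 lower, and at least 10 counts in every library gave 1 higher. The causes were not tested.

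No sign of pairing by replicate number was seen (correlations of same-numbered deviations -0.029, 0.056 and -0.067), which does not exclude a pairing. Adding replicate number as a block left 0 higher calls, and *Asf1a* was at 0.21 (edgeR unadjusted p = 0.0641).

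The principal-transcript and unshared-base lengths were chosen after seeing the data. Counting error was at most 4.20% for a member in any library.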
